A study of Mus musculus with 12 samples.

Results

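The clustered protocadherins are cell-surface proteins of the cadherin family, encoded by 3 neighbouring gene clusters (alpha, beta and gamma) on mouse chromosome 18. The members were all protein-coding RefSeq genes on that chromosome whose symbol begins with Pcdha, Pcdhac, Pcdhb, Pcdhga, Pcdhgb or Pcdhgc followed by a number, which gave 57 of the 21887 protein-coding genes. The alpha cluster holds 14 of them (Pcdha1 to Pcdha12, Pcdhac1 and Pcdhac2) and the beta cluster 22 (Pcdhb1 to Pcdhb22). The gamma cluster holds 21, of which 12 are of type A, 6 of type B and 3 of type C. Peaks were taken from the first to the last gene of each cluster with 20 kb on both sides (20 kb flanks). In build mm10 the clusters run from 36930285 to 37188897 (alpha), from 37264998 to 37521419 (beta) and from 37661775 to 37841873 (gamma). Within these limits lay 76 of 18139 INO80 peaks, 25 of 26199 H2A.Z peaks of Ino80cKO cells and 45 of 33827 H2A.Z peaks of Ino80WT cells.

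INO80, the ATPase of a chromatin remodelling complex, and H2A.Z, a histone variant that the complex can act on, were mapped by ChIP-seq in spermatogenic cells of testes at postnatal day 18. H2A.Z was precipitated from Ino80cKO cells, in which Ino80 was deleted by Stra8-Cre, a recombinase under the promoter of a gene of premeiotic germ cells, and from Ino80WT cells. INO80 was precipitated from cells labelled wild type. All mice were of mixed background, each ChIP group and each input group has 2 libraries, and chromatin was cut with micrococcal nuclease. The labels do not give the number of animals, whether libraries came from separate animals, or the share of cells that kept Ino80. Each of the 3 peak lists stands for a whole ChIP group and gives positions alone, so no value has a replicate error, the depth is unknown and differences between lists were not tested. The lists hold no expression, so neither the cell type nor the deletion could be checked in them. Intervals in brackets are 95% Wilson intervals for counting error only.

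In the alpha and gamma clusters each gene has its own promoter and a large variable first exon, which is spliced to constant exons shared by the whole cluster. The beta genes have a single exon and no constant part. In neurons, where these genes are best known, each cell uses a few promoters chosen largely at random, and the isoforms serve recognition between a cell's own branches. CTCF and cohesin take part in that choice, and the C-type genes (Pcdhac1, Pcdhac2 and Pcdhgc3 to Pcdhgc5) are used more evenly than the others. The gene table gives no strand for the members. From general knowledge of these clusters all of them were taken to run towards higher coordinates, so the lower coordinate of a gene was used as its start, and every distance from a start rests on this.

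**Figure D1:**
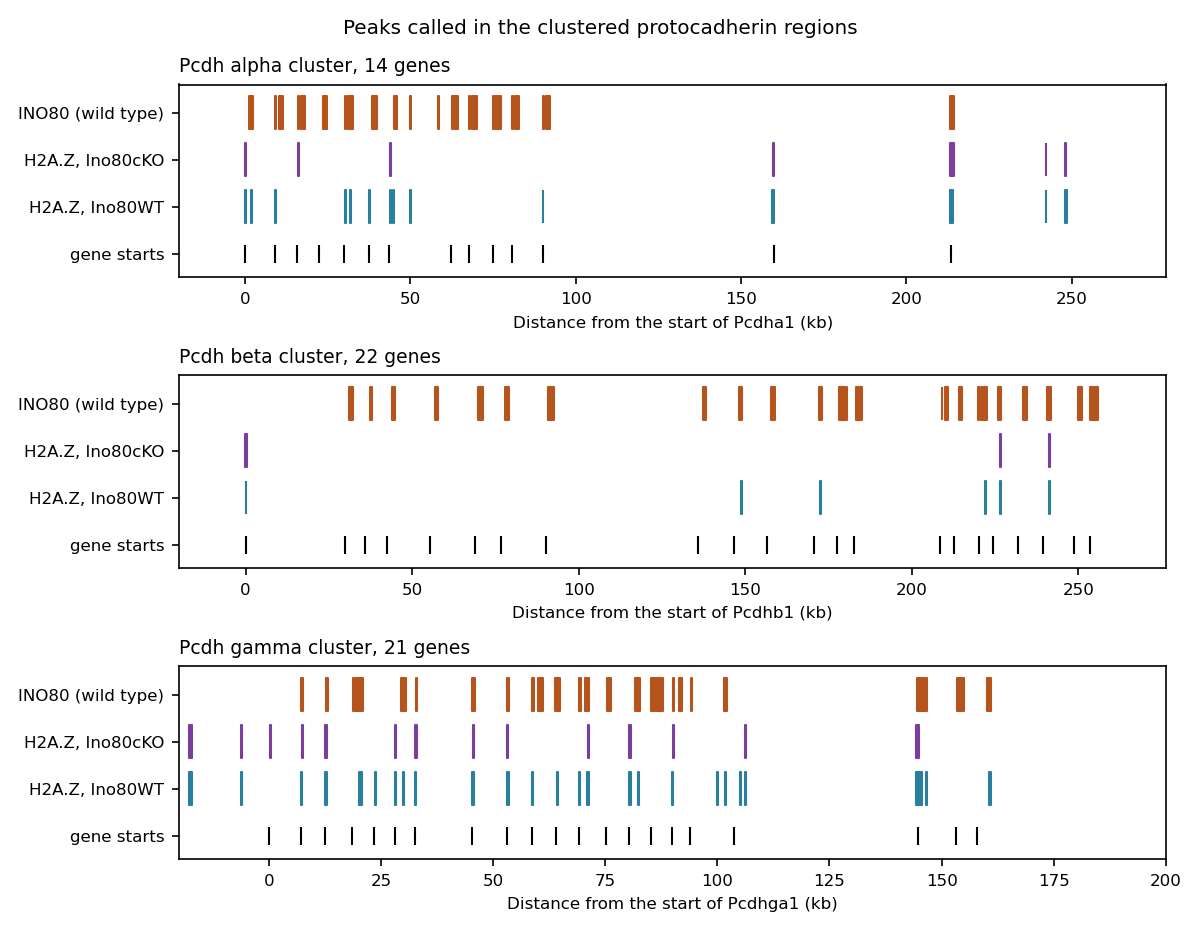
Peaks of the 3 lists in the alpha, beta and gamma clusters, from top to bottom, against the distance in kb from the first gene start of each cluster. Vertical bars are peaks (those narrower than 0.25 kb are drawn at 0.25 kb) and black ticks are gene starts. INO80 peaks follow the gene starts through the arrays, with 23, 29 and 24 peaks. H2A.Z has fewer peaks in the beta cluster (3 in Ino80cKO and 6 in Ino80WT cells) than in the alpha and gamma clusters.

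INO80 peaks were dense in all 3 clusters. They lay at 9.32 peaks per 100 kb over the clusters and flanks, against 0.674 over all chromosomes between the first and last protein-coding gene, and covered 7.94% of the sequence against 0.635%. These values were not adjusted for how closely the genes lie, and the clusters are packed with genes. The members are 57 of 21887 protein-coding genes, and the regions hold 76 of 18139 INO80 peaks. The beta cluster had 29 INO80 peaks covering 25719 bp, the gamma cluster 24 covering 19588 bp and the alpha cluster 23 covering 19443 bp. The median INO80 peak of the clusters was 968.5 bp wide, against 678 bp in the whole list. H2A.Z peaks too were denser than over all chromosomes, at 3.07 against 0.974 per 100 kb in Ino80cKO cells and 5.52 against 1.26 in Ino80WT cells. They covered 0.888% of the sequence against 0.529% in Ino80cKO cells, and 1.79% against 0.728% in Ino80WT cells. In the beta cluster the peaks per 100 kb were lower, 1.01 and 2.02. There H2A.Z covered 0.302% and 0.446% of the sequence, less than over all chromosomes. H2A.Z peaks were narrower here than in their own lists, with medians of 209 bp in Ino80cKO cells and 264 bp in Ino80WT cells, against list medians of 422 and 460 bp. The Hox clusters, another set of tandem developmental genes, had between 11.7 and 19.9 INO80 peaks per 100 kb under the same flanks.

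More members had an INO80 peak inside the gene than at its start. An INO80 peak centred 1 to 3 kb downstream of the start was present in 42 of 57 members (73.7%, 61.0 to 83.4%), against 1258 of 17492 other protein-coding genes with a known strand outside chromosome 18 (7.19%). This window was chosen after the peak positions had been seen, so the counts describe the pattern and do not test it. In 20 of the 57 members there was such a peak and none within 1 kb of the start (35.1%), against 2.18% of the other genes. An INO80 peak within 1 kb of the start was listed for 32 of 57 members (56.1%, 43.3 to 68.2%), close to the 52.6% of other genes. With windows of 3 kb it was 54 of 57 members (94.7%) against 55.9% of other genes. These windows reach the peaks inside the genes and, upstream, peaks of the neighbouring gene, as at Pcdhga4 with the peak of Pcdhgb1. In 22 members both places had a peak (38.6%, against 5.01%). A single wide peak could count for both, as it did at Pcdha6, Pcdhb14 and Pcdhgc3. The 5 members with INO80 at neither place (8.77%, against 45.2%) were Pcdhac1, Pcdhb1, Pcdhga1, Pcdhga4 and Pcdhga12.

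**Figure D2:**
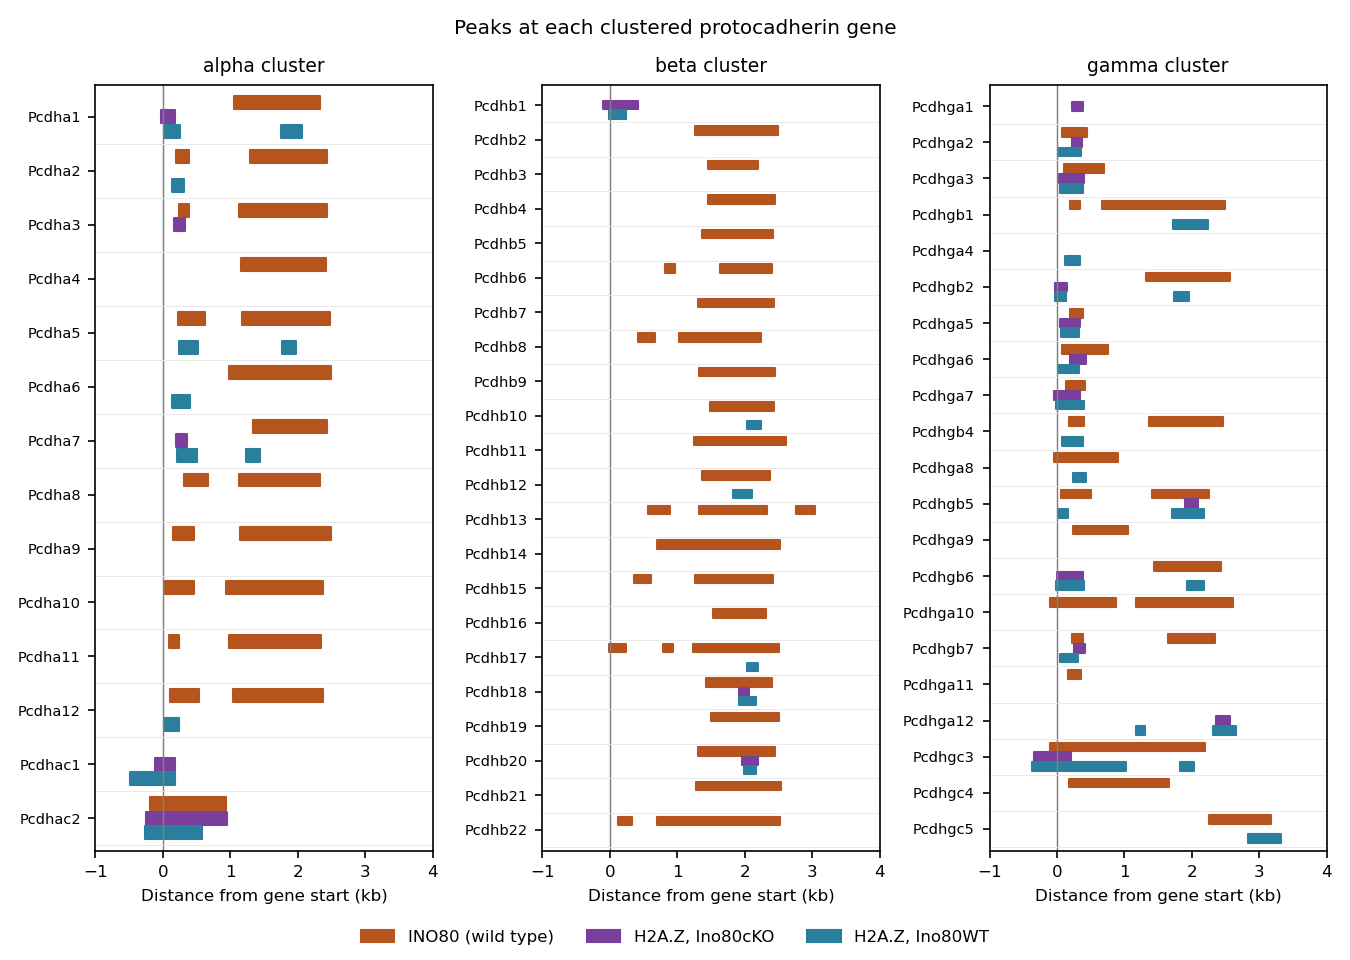
Peaks at each of the 57 genes, against the distance in kb from the gene start (grey line), with the alpha, beta and gamma clusters from left to right. Each gene has 3 rows of bars, INO80 above H2A.Z of Ino80cKO and of Ino80WT cells. INO80 bars stand between 1 and 3 kb in every gene from Pcdha1 to Pcdha12, from Pcdhb2 to Pcdhb22 and in every gamma B gene, but in 1 of 12 gamma A genes.

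In the alpha cluster all 12 genes from Pcdha1 to Pcdha12 had an INO80 peak inside. Their centres lay between 1658 and 1889.5 bp from the start (median 1758.5 bp, SD 77.9 bp over 12 genes), and their widths between 1100 and 1506 bp. The positions thus varied by less than the width of any of these peaks. At Pcdha1, the first gene of the array (36930285 to 37187657), the peak was 1275 bp wide and centred 1694 bp inside. At Pcdha12 (start 37020230) it was 1338 bp wide and centred 1705.5 bp inside. A separate INO80 peak of 147 to 430 bp was centred within 1 kb of the start at 8 of these genes, at Pcdha2 (192 bp), Pcdha3 (147 bp), Pcdha5 (403 bp), Pcdha8 (349 bp), Pcdha9 (321 bp), Pcdha10 (421 bp), Pcdha11 (149 bp) and Pcdha12 (430 bp). At Pcdha6 the inside peak itself, 1506 bp wide, reached into the 1 kb window.

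The C-type genes of the alpha cluster were unlike their neighbours. Neither had an INO80 peak 1 to 3 kb inside. Pcdhac2 (start 37143678), the last gene of the cluster, had an INO80 peak of 1126 bp at its start. It overlapped H2A.Z peaks of 1208 bp in Ino80cKO and 845 bp in Ino80WT cells. Pcdhac1 (start 37090136) had no INO80 peak and H2A.Z peaks of 296 bp in Ino80cKO and 663 bp in Ino80WT cells.

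In the beta cluster 21 of 22 genes had an INO80 peak inside. Taking the widest such peak per gene, the centres lay 1609 to 2016 bp from the start (median 1879 bp, SD 114 bp, n = 21 genes). Measured to the annotated end of the gene, the same centres varied more, from 709.5 to 3354.5 bp (SD 714 bp, n = 21 genes), and the genes themselves were 2340 to 5271 bp long. These peaks were picked by a window of distance from the start, which caps the spread from the start but not the spread to the end. The comparison therefore cannot decide which measure is the more regular. Within that window the centres kept to the stretch from 1609 to 2016 bp. The widest of these peaks were at Pcdhb22, the last gene (37518353 to 37521419), with 1821 bp, and at Pcdhb14 with 1816 bp. Both extended to within 1 kb of the start. The narrowest were at Pcdhb3 (737 bp), Pcdhb6 (767 bp) and Pcdhb16 (784 bp). INO80 within 1 kb of the start was listed for 7 beta genes (31.8%, 16.4 to 52.7%), against 52.6% of other genes. Besides Pcdhb14 and Pcdhb22 these were Pcdhb6 (150 bp), Pcdhb8 (250 bp), Pcdhb13 (327 bp), Pcdhb15 (251 bp) and Pcdhb17 (243 bp). At Pcdhb6, Pcdhb13 and Pcdhb14 the peaks began 812, 563 and 706 bp downstream of the start, and windows of 500 bp did not reach them.

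Pcdhb1, the first beta gene (37264998 to 37267454), was the exception. It had no INO80 peak, and it was the beta gene with H2A.Z at its start, in peaks of 513 bp in Ino80cKO and 245 bp in Ino80WT cells. The other 21 beta genes had no H2A.Z peak within 1 kb of the start in either list.

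The gamma cluster divided by type of gene. All 6 gamma B genes had an INO80 peak inside, centred 1583.5 to 1993.5 bp from the start (median 1922.5 bp) and 690 to 1830 bp wide. Of 12 gamma A genes 1 did, Pcdhga10, with a peak of 1437 bp centred 1889 bp inside. The types are interspersed along the array, with Pcdhga1 to Pcdhga3 and Pcdhga5 to Pcdhga7 as runs of A genes. At their starts 9 of 12 gamma A genes (75.0%, 46.8 to 91.1%) and 4 of 6 gamma B genes (66.7%, 30.0 to 90.3%) had INO80. Both intervals include the 52.6% of other genes. The start peaks of gamma A genes were 192 to 981 bp wide (median 594 bp) and centred 258 to 647 bp downstream of the start. They were widest at Pcdhga10 (981 bp), Pcdhga8 (956 bp), Pcdhga9 (821 bp) and Pcdhga6 (681 bp). The others were Pcdhga2 (359 bp), Pcdhga3 (594 bp), Pcdhga5 (192 bp), Pcdhga7 (285 bp) and Pcdhga11 (197 bp). Those centred at gamma B starts lay at Pcdhgb1 (154 bp), Pcdhgb4 (218 bp), Pcdhgb5 (453 bp) and Pcdhgb7 (155 bp), and had a lower median of 186.5 bp. Pcdhga1, the first gene of the array (start 37661775), had no INO80 peak. The difference between the types was described over genes of a single list and not tested.

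The 3 gamma C-type genes each had a single INO80 peak. At Pcdhgc3 (start 37806410) it was 2298 bp wide, the widest INO80 peak of the 3 clusters, and ran from the start into the gene with its centre at 1043.5 bp. At Pcdhgc4 (start 37815079) it was 1475 bp wide with its centre at 922 bp. At Pcdhgc5 (37819546 to 37841873), the last gene, it was 924 bp wide with its centre at 2715.5 bp. The centres of these 3 peaks were thus spread over a longer stretch than in the alpha, beta or gamma B genes.

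**Figure D3:**
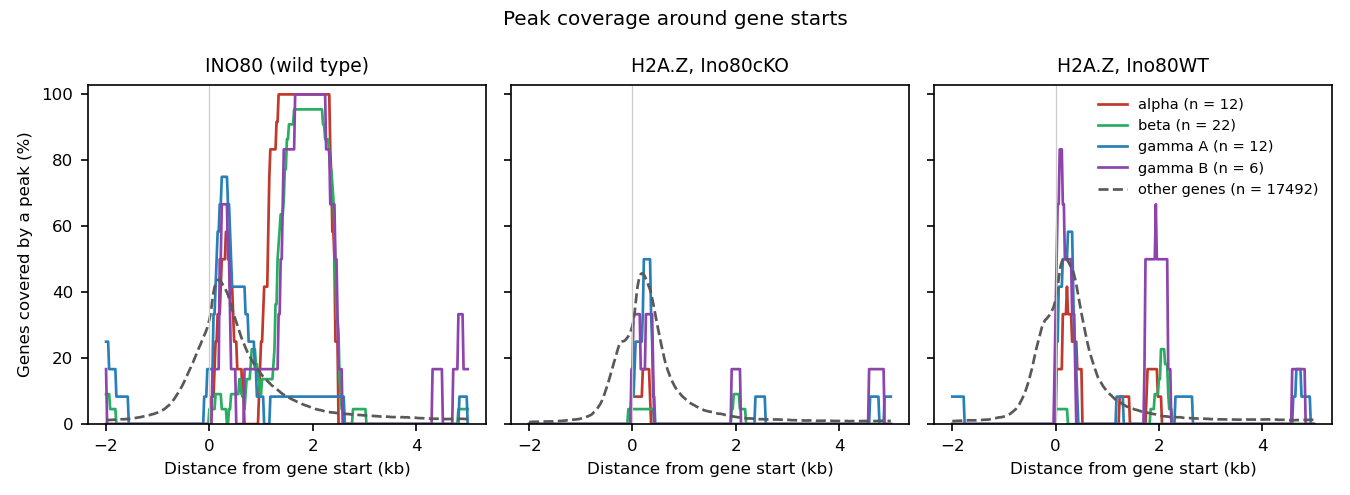
Percent of genes whose sequence at a given distance in kb from the start lies under a peak, for INO80, H2A.Z in Ino80cKO cells and H2A.Z in Ino80WT cells. Coloured lines are 12 alpha, 22 beta, 12 gamma A and 6 gamma B genes, and the dashed line is 17492 other genes. At 1800 bp INO80 covered 100% of alpha and gamma B genes, 95.5% of beta genes and 8.33% of gamma A genes, against 6.04% of other genes.

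Peak coverage at fixed distances gave the same order. At 1800 bp from the start INO80 covered all 12 alpha and all 6 gamma B genes, 95.5% of beta genes and 8.33% of gamma A genes, against 6.04% of other genes. Other genes were covered most often 180 bp from the start (43.8%), and gamma A genes 240 bp from the start (75.0%). At 1800 bp H2A.Z of Ino80cKO cells covered none of the alpha, beta, gamma A or gamma B genes. H2A.Z of Ino80WT cells covered 3 of 6 gamma B genes, 16.7% of alpha genes and no beta or gamma A gene there. Slightly further in, at 2040 bp, it covered 22.7% of beta genes, where INO80 still covered 95.5%. H2A.Z of Ino80cKO cells covered 9.09% of beta and 16.7% of gamma B genes at 2040 bp.

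The variable exons of neighbouring genes resemble one another in sequence, and how reads that match several genes were placed is not given in the sources used here. Which gene of an array an INO80 peak belongs to is uncertain to that extent, and the part of such reads in the pattern was not tested. Gene models Gm37013, Gm38666 and Gm38667, which RefSeq starts within 41 bp of Pcdha4, Pcdha6 and Pcdha7, share the peaks of those members.

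H2A.Z was listed at the starts of fewer members than of other genes. It lay within 1 kb of the start of 16 of 57 members in Ino80cKO cells (28.1%, 18.1 to 40.8%), against 57.2% of other genes. In Ino80WT cells it was 22 of 57 members (38.6%, 27.1 to 51.6%), against 60.4% of other genes. The beta genes had it at 1 of 22 starts in each list. In Ino80WT cells the gap lay in the beta genes. The alpha cluster (57.1%) and the gamma cluster (61.9%) were there close to the 60.4% of other genes. In Ino80cKO cells the alpha cluster (35.7%) and the gamma cluster (47.6%) were also below the 57.2% of other genes. Gamma genes had H2A.Z at 10 of 21 starts in Ino80cKO and 13 of 21 in Ino80WT cells, and alpha genes at 5 of 14 and 8 of 14. Where H2A.Z was present it was close to the start, with median centres 204.75 bp downstream in Ino80cKO and 190.75 bp downstream in Ino80WT cells.

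A smaller share of INO80 peaks overlapped H2A.Z in the clusters than in the whole list. Of the 76 INO80 peaks, 12 overlapped H2A.Z of Ino80cKO cells (15.8%, 9.27 to 25.6%), against 77.6% of all INO80 peaks. Overlap with H2A.Z of Ino80WT cells was 29 of 76 (38.2%, 28.1 to 49.4%), against 83.0% of all INO80 peaks. H2A.Z of either genotype was met by 30 of the 76 (39.5%, against 84.3%). The gamma cluster had the most overlap, with 8 of 24 peaks in Ino80cKO and 16 of 24 in Ino80WT cells. The counts were 2 of 23 and 8 of 23 in the alpha cluster, and 2 of 29 and 5 of 29 in the beta cluster. INO80 peaks inside members overlapped wild-type H2A.Z in 34.1% of 44 cases, which include a peak at the pseudogene Pcdhgb8, whereas those inside other genes did so in 76.0% of 1193 cases. INO80 peaks centred within 1 kb of a member start overlapped it in 43.3% of 30 cases, against 94.7% of 8322 at other genes. Counted from the H2A.Z side, 12 of 25 peaks of Ino80cKO cells in the clusters overlapped INO80 (48.0%, 30.0 to 66.5%), against 57.9% of all peaks of that list. In Ino80WT cells 30 of 45 did (66.7%, 52.1 to 78.6%), against 47.2% of all, so there the share was higher in the clusters.

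**Figure D4:**
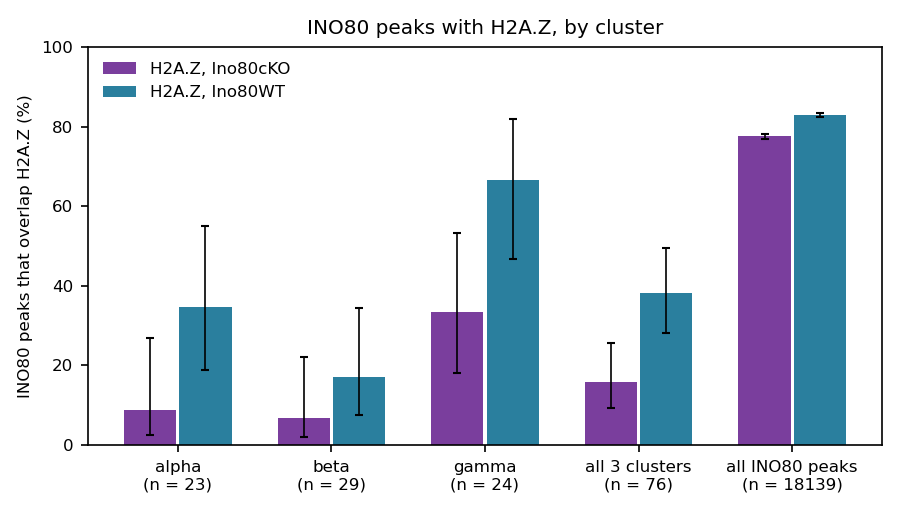
Percent of INO80 peaks that overlap an H2A.Z peak by at least 1 bp, for H2A.Z of Ino80cKO and of Ino80WT cells. Bars are the alpha, beta and gamma clusters, the 3 together and all 18139 INO80 peaks, with 95% Wilson intervals for counting error. The 3 clusters together reach 15.8% and 38.2%, against 77.6% and 83.0% of all INO80 peaks.

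The width of the INO80 peaks went the other way from the whole list. Among INO80 peaks of 1 kb or wider, 25 of 35 in the clusters had no H2A.Z peak of either genotype (71.4%), against 355 of 6204 in the whole list (5.72%). These 25 peaks are included in the 355. Among narrower peaks the values were 51.2% of 41 in the clusters and 20.9% of 11935 in all. In the Hox clusters 46.9% of 98 INO80 peaks overlapped H2A.Z of Ino80cKO cells and 60.2% that of Ino80WT cells, above the 15.8% and 38.2% of the 3 protocadherin clusters combined. The gamma cluster alone reached 66.7% (46.7 to 82.0%) with H2A.Z of Ino80WT cells. That was above the value of the Hox clusters combined and below that of HoxB (68.0%). With H2A.Z of Ino80cKO cells the gamma cluster, at 33.3%, was below the Hox clusters combined.

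Per gene, 15 of the 32 members with INO80 at the start also had wild-type H2A.Z there (46.9%), against 96.3% of other genes with INO80. In turn, INO80 lay at the start of 8 of 14 members with H2A.Z of both genotypes (57.1%, against 86.4%) and of 16 of 33 members with H2A.Z in neither (48.5%, against 4.13%). It lay at 1 of 2 members with H2A.Z in the knockout alone (against 50.9%) and at 7 of 8 with H2A.Z in the wild type alone (87.5%, against 45.1%). Members without H2A.Z thus had INO80 at the start far more often than other genes without it.

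The comparison of Ino80cKO with Ino80WT cells asked which H2A.Z peaks are listed once Ino80 is deleted. Over the members, 14 genes had H2A.Z at the start in both genotypes (24.6%, against 56.6% of other genes) and 33 in neither (57.9%, against 38.9%). H2A.Z was listed in Ino80cKO cells alone at 2 genes (3.51%, against 0.640% of other genes) and in Ino80WT cells alone at 8 (14.0%, against 3.88%). The 2 genes seen in the knockout alone were Pcdha3 (160 bp) and Pcdhga1 (173 bp). The 8 seen in the wild type alone were Pcdha2 (189 bp), Pcdha5 (275 bp), Pcdha6 (277 bp), Pcdha12 (219 bp), Pcdhga4 (225 bp), Pcdhgb4 (300 bp), Pcdhga8 (193 bp) and Pcdhgb5 (147 bp). All 10 of these peaks were below the median width of their list, and a peak listed in 1 genotype can differ little in strength from 1 that was not listed in the other.

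Among the 14 genes with H2A.Z in both genotypes, the peak was wider in Ino80cKO cells at 5 and in Ino80WT cells at 9 (64.3% wider in the wild type, against 72.2% of other genes). The 5 that were wider in the knockout were Pcdhac2 (1208 bp against 845 bp in the wild type), Pcdhb1 (513 against 245 bp), Pcdhga3 (374 against 332 bp), Pcdhga5 (299 against 264 bp) and Pcdhgb2 (176 against 170 bp). The largest difference in the other direction was at Pcdhgc3, with 542 bp in Ino80cKO and 1392 bp in Ino80WT cells, followed by Pcdhac1 with 296 and 663 bp. Pcdhga7 (386 bp in Ino80cKO and 411 bp in Ino80WT cells) and Pcdhgb6 (380 and 407 bp) were close in width.

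**Figure D5:**
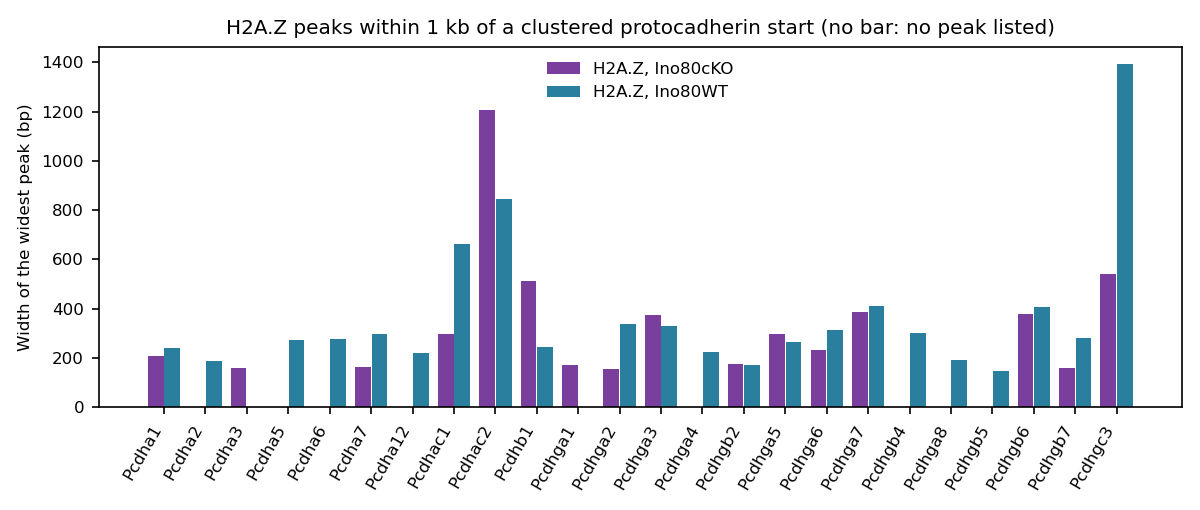
Width in bp of the widest H2A.Z peak within 1 kb of the start, at the 24 members with such a peak in either genotype, with Ino80cKO left of Ino80WT for each gene. A missing bar means that no peak is listed. The widest are Pcdhac2 in Ino80cKO cells (1208 bp) and Pcdhgc3 in Ino80WT cells (1392 bp).

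H2A.Z inside the genes differed more between the lists. A peak centred 1 to 3 kb from the start was listed in 4 of 57 members in Ino80cKO cells (7.02%, against 6.95% of other genes) and in 14 in Ino80WT cells (24.6%, against 7.65%). The 14 included 4 of 6 gamma B genes and the beta genes Pcdhb10, Pcdhb12, Pcdhb17, Pcdhb18 and Pcdhb20. The widest of them, 514 bp, was in Pcdhgb1, which had no such peak in Ino80cKO cells. The peaks inside members in Ino80WT cells had a median width of 212 bp, against 460 bp in that whole list. The wild-type list is also longer, at 33827 peaks against 26199, and the difference between the lists was not tested.

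After each knockout peak was merged with any wild-type peak it overlapped, the clusters and their flanks held 47 regions. H2A.Z of both genotypes was present in 22 of them (46.8%, 33.3 to 60.8%, against 66.4% of all 35393 regions). A knockout peak alone made up 2 regions (4.26%, against 4.90%) and a wild-type peak alone 23 (48.9%, 35.3 to 62.8%, against 28.7%). Regions under 500 bp, the kind most of these are, were wild type only in 53.7% of 41 cases in the clusters and in 49.5% of 18523 cases over all chromosomes, so among narrow regions the shares were close. Inside the genes, 1 to 3 kb from the start, 12 of 16 regions were wild type only (75.0%, 50.5 to 89.8%). Among them was 1 in the pseudogene Pcdhgb8, and their median width was 211.5 bp. The remaining 4 were shared, and no such share inside other genes was computed. The shared ones lay in Pcdhb18, Pcdhb20, Pcdhgb5 and Pcdhga12.

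Most regions listed in the wild type alone had INO80. Of the 23 wild-type-only regions of the clusters 19 overlapped an INO80 peak (82.6%), as did 11 of the 22 shared regions. Over all chromosomes the order was the opposite, with 15.0% of wild-type-only and 61.1% of shared regions. Among regions under 500 bp the values were 81.8% of 22 wild-type-only and 52.9% of 17 shared regions in the clusters, against 14.2% and 36.2% over all chromosomes. The wild-type list was also shortened by width to the length of the knockout list. Then 8 of 9 wild-type-only and 10 of 18 shared regions of the clusters overlapped INO80, against 17.7% and 64.6% over all chromosomes. With the widest 50% of each list the order in the clusters turned, at 3 of 5 wild-type-only and 2 of 2 shared regions. These are few regions, and the shares over all chromosomes were 19.6% and 54.5%.

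Away from the gene starts, H2A.Z peaks of both genotypes lay in the stretch that the annotated spans of all alpha genes share. This was far from the start of Pcdhac2, the last of these genes. They were 205 bp in Ino80cKO and 232 bp in Ino80WT cells at 28810 and 28788.5 bp from the start of Pcdhac2, and 261 and 412 bp at 34805 and 34861.5 bp. No INO80 peak overlapped them. Of the neighbouring genes, Taf7, which encodes a subunit of the general transcription factor TFIID, had H2A.Z at its upper end, in 2 peaks totalling 328 bp in Ino80cKO and a peak of 601 bp in Ino80WT cells, and no INO80 peak at either end. Slc25a2, a mitochondrial carrier gene, had no peak at either end. The nearest INO80 peak outside the flanks, between the beta and gamma clusters, was 208 bp wide.

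Protocadherin genes outside the clusters gave a further point of comparison, over a list of 13 genes that includes the protocadherin-related Cdhr1. INO80 lay within 1 kb of either annotated end of 11 of the 13 (84.6%, against 54.5% of all protein-coding genes). H2A.Z lay there in 9 genes in Ino80cKO (69.2%, against 59.2%) and 10 in Ino80WT cells (76.9%, against 62.6%). INO80 was centred 1 to 3 kb inside 7 of the 10 genes whose strand is known, against 7.19% of other genes, and the exceptions were Cdhr1, Pcdh17 and Pcdh18. At gene ends of these 13, INO80 was widest at Pcdh7 (5924 bp), Pcdh15 (4091 bp) and Pcdh1 (3413 bp). Pcdh15, a gene of the inner ear hair bundle, was the gene with H2A.Z in the wild type alone (574 bp). Pcdh9, Pcdh12 and Pcdh20 had H2A.Z in neither genotype, and of these Pcdh20 had INO80 at an end, in a peak of 940 bp.

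Genes whose products act on protocadherin promoter choice or silencing were examined at their annotated ends. Of 20 listed genes, 13 had INO80 (65.0%, against 54.5% of all protein-coding genes). H2A.Z lay at 17 in Ino80cKO cells (85.0%, against 59.2%) and at 17 in Ino80WT cells (85.0%, against 62.6%). The CTCF gene Ctcf had an INO80 peak of 1624 bp and H2A.Z peaks of 1422 bp in Ino80cKO and 1299 bp in Ino80WT cells. Smchd1, which encodes a chromosomal silencing protein, had an INO80 peak of 1265 bp and H2A.Z peaks of 1338 and 1442 bp. Dnmt3a, which encodes a DNA methyltransferase, and the cohesin genes Rad21 and Smc1a had no peak of any list within 1 kb of the annotated ends. Wapl, a cohesin release factor gene, was 1 of 16 genes with known strand that had INO80 centred 1 to 3 kb inside, against 7.19% of other genes.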

How the data were processed

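The 3 peak lists were used as the authors deposited them, with 3 columns (chromosome, start and end) that carry no score, fold or p-value. Build mm10 and the tools Bowtie2, SAMtools, deepTools and MACS2 are named in the submitters' processing notes. For tool versions, peak threshold, control and the way libraries were combined, the sources used here give nothing. Gene positions and symbols came from the RefSeq table of GRCm38.p6, and strands of other genes from the RefSeq promoter table, which gave 17492 protein-coding genes outside chromosome 18. Peaks sharing 1 bp or more counted as overlapping. A gene was called at its start when a peak touched 1 kb on both sides of it. Width percentiles were ranked within a list. With 1 list per ChIP group there was no replicate spread and no test. Members and gene lists were chosen with earlier results of these data known. Genes named are the first and last of each cluster, C-type genes, members in a changed class, members with INO80 at the start, the 5 widest H2A.Z peaks per genotype, and genes of the other lists in classes of fewer than 5. Others, such as Pcdhb3, were named after their values were seen. Input libraries were not analysed here. Python 3.11.15, numpy 2.4.6, pandas 2.3.3 and scipy 1.17.1 were used. Overlap counts equalled those of bedtools 2.31.1 for 6 of 6 pairs of lists, and placement was tested on simulated data.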

Additional observations from a re-analysis of the deposited data

How the results depend on the processing

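No paired analysis was possible because there is 1 peak list per ChIP group and none per library, and for the same reason no replicate could be left out. Of 111 recomputed summary values, 79 stayed within their interval or within 1.5 times the reported value, and 32 moved. The share of members with INO80 at the start moved to 94.7% with 3 kb windows, against 55.9% of other genes. With either annotated gene end it moved to 68.4%, against 54.5% of all protein-coding genes. That setting also counts peaks inside short beta genes that lie near the gene end, as at Pcdhb21. The share with wild-type H2A.Z moved to 54.4% with 3 kb windows, against 64.7% of other genes. Under those windows 13 genes were wild type only. The widest 50% of each list, which drops narrow peaks by construction, gave INO80 at 22.8% of starts and H2A.Z at 5.26% in each genotype. Genes then numbered 2 in both genotypes, 1 in the knockout alone, 1 in the wild type alone and 53 in neither. INO80 peaks fell to 13 in the alpha and 15 in the gamma cluster. Knockout H2A.Z kept 1 peak in each cluster (1208 bp alpha, 513 bp beta, 542 bp gamma), and wild-type H2A.Z 2 peaks covering 1508 bp (alpha), 0 covering 0 bp (beta) and 5 covering 3471 bp (gamma). Regions were 2 shared, 1 knockout only and 5 wild type only, and INO80 overlapped knockout H2A.Z in 4.08% and wild-type H2A.Z in 10.2% of cases, against 72.6% and 79.4% of all INO80 peaks under that setting. Keeping as many of the widest wild-type peaks as there are knockout peaks, 6 regions were knockout only and 9 wild type only, which lowers the second count by construction. The share with INO80 centred 1 to 3 kb inside moved beyond its interval under none of 4 settings, all added after seeing the data. Peak presence depends on depth and threshold, which are unknown.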

Other observations

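The pseudogene Pcdhgb8, which the rule leaves out because it is not protein-coding, lies among the gamma genes. Its INO80 peak was 706 bp wide and centred 1848.5 bp inside, within the 1583.5 to 1993.5 bp of the 6 gamma B genes, and an H2A.Z peak of 194 bp lay at its start in Ino80WT cells.

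An arrangement in which an INO80 peak of 1 kb or wider, free of H2A.Z, was centred 1 to 3 kb inside a gene while no peak of any list lay within 1 kb of the start was found in 9 of 57 members (15.8%). It was found in 2 of 17492 other protein-coding genes (0.0114%), Itga2b and Cnfn. Without the condition on the start the counts were 24 members (42.1%) and 21 other genes. The definition was chosen after the peak positions had been seen.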
